A study of Mus musculus with 7 samples.

Results

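The 9 genes described here encode enzymes of detoxification and redox balance in the mouse stomach: Gstm1, Nqo1, Akr1b8, Akr1c14, Aldh1a1, Ptgr1, Adh1, Gpx2 and Cat. They are 9 of the 18907 features in the count tables. All 9 were found by symbol, each as 1 row, on chromosomes 3, 8, 6, 13, 19, 4, 3, 12 and 2 in the order named. The 9 were chosen for their levels across the cell types of these same plates, so their levels by cell type are given below as a description and carry no test. The comparison of regions was known when they were chosen, too.

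Enzymes of this kind work in stages: reductases and dehydrogenases convert quinones, carbonyls, aldehydes and alcohols, glutathione S-transferases couple electrophiles to glutathione, and peroxidases and catalase remove hydrogen peroxide. Several of the genes, Nqo1 and the glutathione S-transferases among them, are well known targets of NRF2 (Nfe2l2), a transcription factor held low by KEAP1 until electrophiles modify it. In the stomach, pit cells line the surface and pits and secrete the mucin MUC5AC, parietal cells secrete acid and are rich in mitochondria, and tuft cells are rare chemosensory cells.

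Single cells were sequenced from gastric glands of the pylorus (3 plates) and of the corpus (4 plates) of C57BL/6 mice, titled WT, with no treatment in the labels. Glands were pressed out of the tissue and digested with TrypLE, living cells that excluded DAPI were sorted into 384-well plates, and libraries were made by SORT-seq, a plate version of CEL-seq2 that counts the 3' ends of transcripts by unique molecular identifier (UMI). Of 2688 wells, 2235 held at least 1000 UMIs without spike-ins and were kept as cells, 983 from pylorus plates and 1252 from corpus plates. The labels do not say which animals the plates came from, or their age or sex, so all p-values measure the spread between plates.

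Plates held 2646492 to 9511078 UMIs over all wells, and the median kept cell held 6899 to 25545. Pylorus replicate 1 and corpus replicate 1 stood apart, with 6.55% and 4.27% of their UMIs in spike-ins against 0.256 to 0.426% in the other 5 plates. The library labelled corpus replicate 1 held 3340 UMIs of Gast, the hormone of antral G cells, which had 0 in every other plate, the 3 pylorus plates included. The pylorus plates held chief-like cells (43, 58 and 63) and parietal-like cells (2, 12 and 20), as did the corpus plates (6, 73, 38 and 27 chief-like, 3, 8, 56 and 42 parietal-like). Corpus replicate 2 alone held UMIs of the Y-linked gene Ddx3y in number (424, against 0 or 1 elsewhere) and none of Xist (381 to 2753 elsewhere). The Gast counts go against the labels, so plates are called by their labels and the log2 differences below are also given without that library. Leaving it out does not settle the labels of the other plates. Pdx1, an antral homeobox gene, had 0 UMIs in the pylorus plates and 6, 0, 3 and 1 in corpus replicates 1 to 4. The chief-cell gene Gif was at 3534, 1082 and 1107 CPM in pylorus, against 1458, 4999, 805 and 916 CPM in corpus. Cells were grouped by clusters made without the 9 genes and named from marker genes. The pit-like class held 476 cells, neck or gland mucous-like 466, chief-like 308, endocrine-like 282, proliferating 168, parietal-like 143, mast-like 114 and tuft-like 50. Cluster 4 with 199 cells kept no name: Slc1a3, Fam101b, Hells, Dtl, Tff2 and Gstm1 led it. Levels are in CPM, the UMIs of a gene scaled to the total UMIs of the summed cells of a plate, and means are over plates with at least 10 cells of the class.

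Promoter sequence was taken from RefSeq (build GRCm38.p6) as the 250 bases before the gene start, and all 9 genes had an entry. Those of 3 genes are shown because the results below turn on where these genes are highest: Nqo1 (chr8:107403206-107403455, minus strand) and Ptgr1 (chr4:58987079-58987328, minus strand), which were highest in pit-like cells, and Adh1 (chr3:138277335-138277584, plus strand), which was highest in tuft-like cells. Capitals mark a TATAAA, and all are written 5' to 3' on the strand of the gene.
Nqo1: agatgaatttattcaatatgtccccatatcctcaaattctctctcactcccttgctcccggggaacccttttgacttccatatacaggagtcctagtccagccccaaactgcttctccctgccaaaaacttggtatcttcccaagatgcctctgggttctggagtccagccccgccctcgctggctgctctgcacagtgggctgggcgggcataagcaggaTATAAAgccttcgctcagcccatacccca
Ptgr1: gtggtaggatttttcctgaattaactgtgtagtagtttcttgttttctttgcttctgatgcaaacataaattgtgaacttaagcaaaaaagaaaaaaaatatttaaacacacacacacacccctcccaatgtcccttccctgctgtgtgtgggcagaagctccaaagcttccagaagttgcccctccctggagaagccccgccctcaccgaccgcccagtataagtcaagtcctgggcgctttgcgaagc
Adh1: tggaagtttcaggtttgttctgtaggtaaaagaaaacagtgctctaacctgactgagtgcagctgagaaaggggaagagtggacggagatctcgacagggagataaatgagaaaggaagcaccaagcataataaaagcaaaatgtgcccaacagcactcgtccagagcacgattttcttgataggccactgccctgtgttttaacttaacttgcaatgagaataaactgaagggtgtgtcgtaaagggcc
The TATAAA of Nqo1 began 29 bases before the gene start. On either strand, TATAAA occurred in a window of 3 of the 9 genes (Nqo1, Gstm1 and Akr1b8) and in 13.6% of all 32851 RefSeq windows of 300 bases (250 before and 50 after a gene start). The letters TGACNNNGC, the core of the element that NRF2 binds, occurred on either strand in a window of 0 of the 9 genes and in 12.4% of all windows. At that rate 9 genes can hold none, and sequence further from the gene start was not searched. TATAAA was searched after the sequences had been seen.

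Nqo1, the quinone reductase that keeps quinones from redox cycling, was highest in pit-like cells, at 438 ± 94.9 CPM (SD, n = 7 plates). Proliferating cells followed with 257 ± 36.9 CPM (n = 6) and cluster 4 with 146 ± 34.1 CPM (n = 4), then neck or gland mucous-like cells with 41.0 ± 22.9 CPM (n = 7). The other named classes averaged 13.5 to 24.8 CPM. The order held inside plates: pit-like cells were above proliferating cells in 6 of 6 plates, and proliferating cells above cluster 4 in 4 of 4. Pit-like cells were 21.3% of the kept cells and held 66.0% of the Nqo1 UMIs, against 24.6% of all UMIs.

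Ptgr1, a reductase that inactivates leukotriene B4 and prostaglandin metabolites and also reduces reactive carbonyls, had the same order. It averaged 812 ± 251 CPM in pit-like cells (n = 7), 455 ± 128 CPM in proliferating cells (n = 6), 273 ± 37.5 CPM in cluster 4 (n = 4) and 129 ± 54.8 CPM in neck or gland mucous-like cells (n = 7). The remaining named classes averaged 24.8 to 49.6 CPM. Pit-like cells were above proliferating cells in 6 of 6 plates. Across 47 sums of a class in a plate, Nqo1 and Ptgr1 had the highest correlation of any pair of the 9 (Pearson r = 0.92 on log2 values). Sums from a plate share its library and depth.

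**Figure D1:**
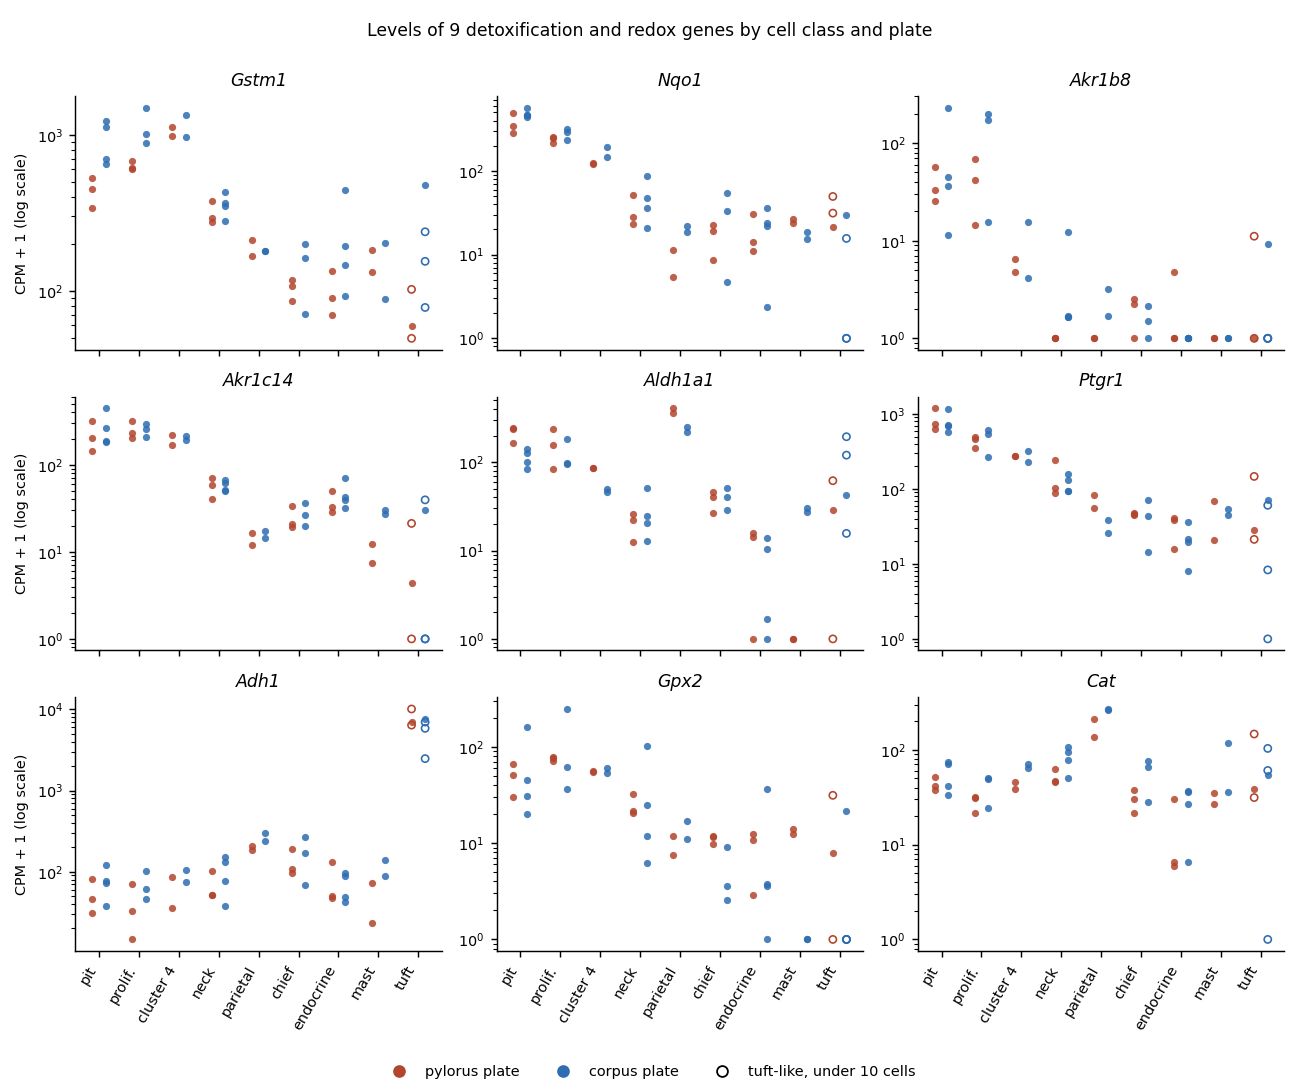
Level of each of the 9 genes by cell class, in CPM on a log axis, with a filled point per plate with at least 10 cells of the class. Open points are tuft-like cells of plates with under 10 such cells. Nqo1 and Ptgr1 were highest in pit-like cells (means 438 and 812 CPM), Aldh1a1 and Cat in parietal-like cells (309.7 and 220.4 CPM) and Adh1 in tuft-like cells (7374 CPM).

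Gstm1, a mu-class glutathione S-transferase, was highest in cluster 4, followed by proliferating cells. It averaged 1102 ± 172 CPM in cluster 4 (n = 4), 879.7 ± 340 CPM in proliferating cells (n = 6), 716 ± 337 CPM in pit-like cells (n = 7) and 337 ± 58.2 CPM in neck or gland mucous-like cells (n = 7). The SDs of the first 3 overlap, but inside plates the order was the same: cluster 4 was above proliferating cells in 4 of 4 plates, proliferating above pit-like cells in 6 of 6, and pit-like above mucous-like cells in 7 of 7. Gstm1 was among the genes that lead cluster 4, although the clusters were made without it. Mu-class family members are alike in sequence, and how reads shared between them were counted is not given in the sources used here.

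Akr1c14, an aldo-keto reductase that acts on steroids as a 3-alpha-hydroxysteroid dehydrogenase, averaged 252 ± 47.4 CPM in proliferating cells, 248 ± 105 CPM in pit-like cells and 198 ± 22.3 CPM in cluster 4. The means of proliferating and pit-like cells differed by less than the spread between plates. Inside plates, proliferating cells were above pit-like cells in 6 of 6. Neck or gland mucous-like cells had 56.0 ± 10.6 CPM.

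Akr1b8, an aldose reductase relative that reduces aldehydes, was scarce outside proliferating cells (84.1 ± 80.0 CPM) and pit-like cells (61.5 ± 74.9 CPM). Its SD was about as large as its mean in both classes. Proliferating cells were above pit-like cells in 3 of 6 plates. Cluster 4 averaged 6.73 CPM, and all other named classes averaged 4.13 CPM or less. In pit-like cells, Akr1b8 had 24.4, 56.5 and 31.8 CPM in pylorus replicates 1 to 3, against 228, 10.3, 35.2 and 44.2 CPM in corpus replicates 1 to 4. The library labelled corpus replicate 1 was high and the other 6 were low. In proliferating cells it had 13.6, 68.1 and 41.3 CPM in the pylorus plates, against 169.6, 14.6 and 197 CPM in corpus replicates 1, 3 and 4. Corpus replicates 1 and 4 were high there, and the regions overlapped.

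Gpx2, the glutathione peroxidase of the gut epithelium, averaged 94.1 ± 75.9 CPM in proliferating cells, 57.0 ± 48.3 CPM in pit-like cells and 54.9 ± 2.76 CPM in cluster 4. Inside plates, proliferating cells were above pit-like cells in 6 of 6, and cluster 4 above pit-like cells in 4 of 4. Proliferating cells had 75.1, 77.4 and 70.0 CPM in pylorus replicates 1 to 3. They had 246, 35.4 and 61.0 CPM in corpus replicates 1, 3 and 4, so that the corpus plates spanned the pylorus values, and corpus replicate 1 was the highest.

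Nfe2l2 itself averaged 1111 ± 243 CPM in pit-like cells, 1242 ± 156 CPM in proliferating cells and 967 ± 58.6 CPM in cluster 4, and 458 ± 76.2 CPM in neck or gland mucous-like cells. It was at 140.3 to 302 CPM in the other named classes. Keap1 averaged 32.6 to 70.1 CPM over the classes.

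The pit-like class was made of 3 clusters that divide by plate. Cluster 3 (212 cells, led by Sptssb, Fabp2 and Muc5ac) came mainly from the replicate 1 plates and corpus replicate 2. Clusters 15 (159 cells, led by Aldh3a1 and Gkn1) and 16 (105 cells, led by the interferon-response gene Ifit1 and by Lypd8) came mainly from the other 4 plates. In those 4 plates Gstm1 was 305 ± 68.1 CPM in cluster 16 and 719 ± 194 CPM in cluster 15, and cluster 16 was the lower in 4 of 4. Akr1c14 and Gpx2 were likewise lower in cluster 16 in 4 of 4 plates. Nqo1, with 473 ± 127 CPM in cluster 16 and 322 ± 86.1 CPM in cluster 15, was higher in cluster 16 in 4 of 4. Ptgr1, Akr1b8, Aldh1a1 and Adh1 were higher in cluster 16 in 4 of 4 plates as well, and Cat was in 2 of 4. The 9 genes thus did not vary as 1 block within pit-like cells.

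Adh1, the class I alcohol dehydrogenase, which oxidises ethanol and retinol, was highest in tuft-like cells. It had 10105, 6394 and 7033 CPM in the tuft-like cells of pylorus replicates 1 to 3 (4, 7 and 13 cells), against 5834, 2471, 6978 and 7715 CPM in corpus replicates 1 to 4 (3, 4, 9 and 10 cells). These rest on 208, 632 and 2050 UMIs in the pylorus plates and on 98, 64, 954 and 1867 UMIs in the corpus plates. The regions overlap, and tuft-like cells were above every other class in every plate. The low corpus replicate 2 value comes from 4 cells.

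All 50 of 50 tuft-like cells had an Adh1 UMI, at 456 to 15373 CPM per cell with a median of 6732 CPM. The class was 2.24% of cells and held 55.3% of all Adh1 UMIs. Free RNA can place UMIs in wells of other types. With wells thinned to 2000 UMIs, 97.96% of tuft-like cells (48 of 49) had an Adh1 UMI, against 13.5% of pit-like cells (62 of 459). Of the few immune-like cells 5.26% did (1 of 19, 95% interval 0.935 to 24.6%). Unthinned, the shares were 100% in tuft-like, 61.3% in pit-like and 31.6% in immune-like cells (6 of 19). Relative to the tuft marker Dclk1, there were 1.86 Adh1 UMIs per Dclk1 UMI in tuft-like cells, but 25.2 in parietal-like cells, 10.9 in pit-like cells and 5.86 to 14.7 in the other classes. The part of free RNA in the Adh1 of the other classes was not tested.

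Outside tuft-like cells Adh1 was highest in parietal-like cells (232 ± 51.0 CPM, n = 4), followed by chief-like cells (149.8 ± 75.2 CPM). The other classes averaged 53.6 to 85.1 CPM. Of the other alcohol, aldehyde and retinoid enzymes, 4 of the 12 above 20 CPM in a class were highest in tuft-like cells (Adh5, Aldh2, Aldh3a2 and Aldh9a1), beside 19.2% of all 9159 genes above that level. This list and those below were chosen with earlier results of these data known. Aldh2, which clears acetaldehyde in mitochondria, averaged 1655 ± 79.2 CPM there (n = 2 plates) and 182 ± 56.8 CPM in pit-like cells (n = 7). Adh5 was level between tuft-like (136 ± 35.1 CPM, n = 2) and parietal-like cells (135 ± 36.1 CPM, n = 4). Aldh3a2 varied widely in tuft-like cells, at 284 ± 122 CPM (n = 2), against 181 ± 40.6 CPM in pit-like cells (n = 7).

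Aldh1a1, which makes retinoic acid from retinaldehyde, averaged 309.7 ± 88.4 CPM in parietal-like cells (n = 4), 155 ± 61.9 CPM in pit-like cells and 141 ± 60.6 CPM in proliferating cells. Parietal-like cells were above pit-like cells in 4 of 4 plates. Pit-like and proliferating cells did not differ beyond their spread, and pit-like cells were the higher in 4 of 6 plates. Its near copy Aldh1a7 may share reads with it.

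Cat, the peroxisomal catalase that splits hydrogen peroxide, was also a gene of parietal-like cells, at 220.4 ± 61.2 CPM (n = 4) against 68.3 ± 24.4 CPM in neck or gland mucous-like cells. Parietal-like cells were above these in 4 of 4 plates. All other classes averaged 20.3 to 53.7 CPM. Of the other peroxide and thiol enzymes above 20 CPM in a class, 7 of 22 were highest in parietal-like cells, beside 7.46% of all genes above that level.

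**Figure D2:**
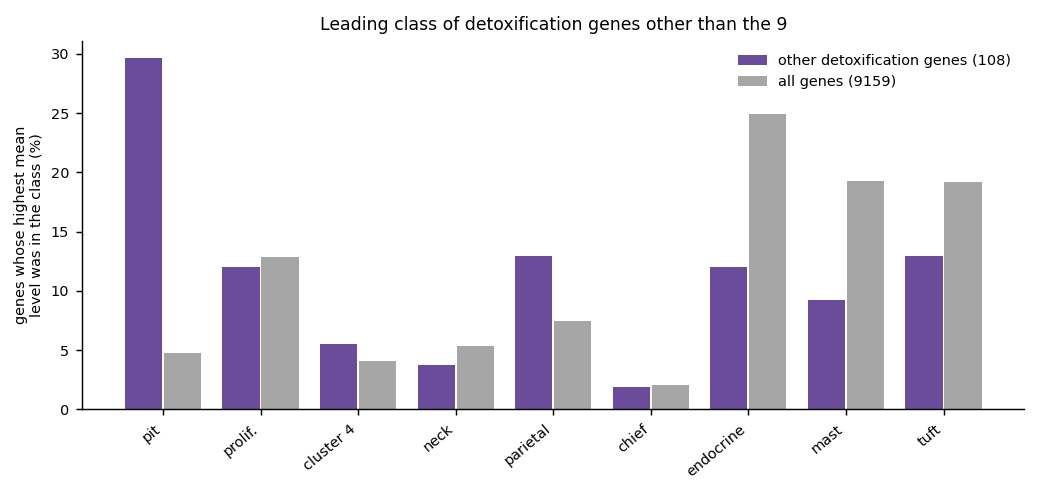
Share of genes, in percent, that reached their highest mean level in each cell class, for the 108 listed detoxification genes other than the 9 and for all genes with at least 20 CPM in a class. Of the listed genes 29.6% were highest in pit-like cells, against 4.78% of all 9159 genes. The lists were chosen with earlier results of these data known, so the shares are description only.

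The 9 genes fall apart by their course over the 47 class-by-plate sums. Gstm1, Nqo1, Akr1b8, Akr1c14, Ptgr1 and Gpx2 had pairwise correlations of 0.71 to 0.92. Adh1 had r = -0.50 to 0.28 with the other 8, and Cat had -0.12 to 0.46. Among 5873 genes, those most like Nqo1 were Gsdma2 (r = 0.96), Me1 (0.96), the malic enzyme that yields NADPH, and Krt19 (0.95). Those most like Ptgr1 were Gsto1 (0.97), an omega-class glutathione transferase, Pla2g10 (0.95), a secreted phospholipase, and Cyp2c65 (0.94). Adh1 was most like Sh2d7 (0.88), Spib (0.87), a transcription factor, and Dclk1 (0.87), and of these Dclk1 named the tuft-like class.

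Gstm1 was most like Ano1 (0.90), a chloride channel, 2310042E22Rik (0.89) and Nfe2l2 (0.88). Gpx2 was most like Ano1 (0.85), Syt16 (0.83) and Tff2 (0.83), the trefoil peptide of mucous neck cells. For Akr1c14 the leading genes were Esd (0.89), Adh7 (0.88), the stomach alcohol dehydrogenase, and Klf4 (0.88). For Akr1b8 they were Aadac (0.88), Me2 (0.85) and Vstm2b (0.85). Aldh1a1 went with Ezr (0.87), which links actin to microvilli, Mal2 (0.86) and Ak3 (0.83). Cat had weaker matches, mtCytb (0.72), Mfsd4 (0.71) and Glul (0.71), glutamine synthetase.

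Of 108 listed genes other than the 9 that reached 20 CPM in a class, 29.6% were highest in pit-like cells and 13.0% in parietal-like cells, against 4.78% and 7.46% of all 9159 such genes. By list, again without the 9, pit-like cells led 7 of 12 cytochrome P450, glucuronosyl- and sulfotransferases, 4 of 10 aldo-keto and quinone reductases and 7 of 20 NRF2 genes. They led 4 of 16 glutathione S-transferases, as many as endocrine-like cells. Among peroxisome genes, 5 of 16 were highest in pit-like and 4 in parietal-like cells. Pit-like cells led 3 of 22 peroxide and thiol enzymes and 2 of 12 alcohol, aldehyde and retinoid enzymes.

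Of each list, the most abundant genes over all kept cells had these levels. In pit-like cells, the glutathione S-transferases Gsta4 and Gsto1 were at 4486 ± 523 and 2997 ± 597 CPM, the carbonyl reductase Cbr1 at 670 ± 286 CPM and the aldehyde dehydrogenase Aldh3a1 at 843 ± 268 CPM (n = 7 plates each). The sulfotransferase Sult1c2 was at 940 ± 239 CPM there and the glucuronosyltransferase Ugt2b34 at 613 ± 77.6 CPM. The peroxiredoxin Prdx1 was at 915 ± 95.2 CPM in pit-like and 955 ± 87.0 CPM in proliferating cells, and Txn1 at 573 ± 99.9 and 709.8 ± 103 CPM in the same order. The peroxisomal transporter Abcd3 was at 345 ± 53.4 CPM in pit-like cells, and Scp2, a sterol carrier of peroxisomes, at 522 ± 57.1 CPM in parietal-like cells. The ferritin light chain Ftl1 was at 1699.9 ± 109 CPM in pit-like and 1763 ± 409 CPM in proliferating cells. Fth1, the heavy chain of this iron store, was highest in parietal-like cells at 2174 ± 137 CPM (n = 4).

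Over all kept cells, none of the 9 genes passed limma's test of pylorus against corpus plates with Benjamini-Hochberg adjustment. The test called 2 of 12003 genes (0.0167%), and 153 had an unadjusted p under 0.05. A missing call in this fit does not show that the regions are alike. Gstm1 had 370.5, 421 and 389 CPM in pylorus replicates 1 to 3, against 1091, 304, 449.5 and 575 CPM in corpus replicates 1 to 4. The corpus values spanned the pylorus values, with the library labelled corpus replicate 1 high and replicate 2 low. The log2 difference (pylorus minus corpus) was -0.41 (SE 0.36, adjusted p = 0.99996), and -0.17 (SE 0.29, adjusted p = 0.976) without corpus replicate 1.

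Gpx2 shows how far that 1 library carried a mean. It had 40.1, 31.1 and 33.9 CPM in the pylorus plates, against 168, 5.95, 21.6 and 31.6 CPM in the corpus plates. Only corpus replicate 1 lay above the pylorus plates. Ptgr1 had 596, 283 and 275 CPM in the pylorus plates, against 662, 155, 204 and 314 CPM in the corpus plates, and both replicate 1 plates were high. In bulk sums of this kind, fewer cells of a type and less RNA per cell cannot be told apart: pit-like cells were 95, 61 and 61 cells of the pylorus plates and 100, 22, 70 and 67 of the corpus plates.

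Adh1 had 129.6, 139 and 341 CPM over all kept cells of pylorus replicates 1 to 3, against 119, 58.9, 223 and 369 CPM in corpus replicates 1 to 4. Pylorus replicate 3 and corpus replicate 4, the highest of their regions, were also the plates with the most tuft-like cells, 13 and 10, against 3 to 9 in the other 5. Nqo1 had 238, 129 and 128 CPM in the pylorus plates, against 334, 71.5, 161 and 190.3 CPM in the corpus plates, so that the regions overlapped. Akr1c14 overlapped as well, at 179, 128 and 91.2 CPM in the pylorus plates, against 218, 96.7, 95.5 and 113 CPM in the corpus plates. Corpus replicate 2 was the lowest of the 7 plates for 8 of the 9 genes, all but Akr1c14.

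**Figure D3:**
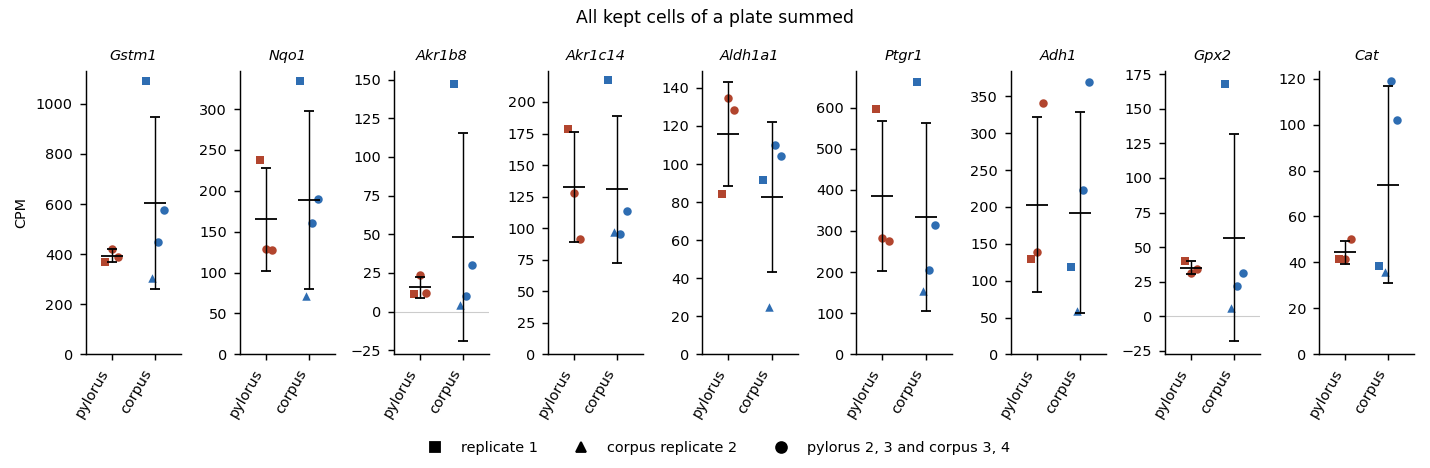
Level of each of the 9 genes over all kept cells of a plate, in CPM, with pylorus plates left and corpus plates right, the replicate 1 plates as squares, corpus replicate 2 as a triangle and the others as circles, and the mean ± SD in black. The library labelled corpus replicate 1 was the highest corpus plate for Gstm1 (1091 CPM), Akr1b8 (147 CPM) and Gpx2 (168 CPM).

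Cat had 41.3, 41.7 and 50.1 CPM in the pylorus plates, against 38.2, 36.0, 119 and 102 CPM in the corpus plates. Corpus replicates 3 and 4 were high and the other 5 plates low. Those 2 plates also held the most parietal-like cells, 56 and 42, against 2, 12 and 20 in the pylorus plates and 3 and 8 in the other corpus plates. The Cat difference was -0.48 (SE 0.51, adjusted p = 0.99996), and -0.81 (SE 0.46, adjusted p = 0.964) without corpus replicate 1. Leaving out each plate in turn gave -0.81 to -0.11, the last without corpus replicate 3, and -0.23 without corpus replicate 4. Aldh1a1 had the largest positive difference of the 9, 0.69 (SE 0.52, adjusted p = 0.99996), and 0.71 (SE 0.58, adjusted p = 0.964) without corpus replicate 1. It was 0.17 (SE 0.25) without corpus replicate 2, where Aldh1a1 was at 24.8 CPM, against 91.3 to 110.1 CPM in the other corpus plates and 84.5 to 135 CPM in the pylorus plates. Without corpus replicate 2 the Gstm1 difference was -0.72 (SE 0.23). Akr1b8 had no stable direction, at -0.48, and 0.30 without corpus replicate 1.

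In pit-like cells alone, Gstm1 had 531, 450.3 and 341 CPM in pylorus replicates 1 to 3, against 1235, 1115, 647 and 695 CPM in corpus replicates 1 to 4. All 3 pylorus plates lay below all 4 corpus plates. Across all genes tested, limma called 0 of 8752 (0%) and 193 had an unadjusted p under 0.05, so none of the 9 passed. The Gstm1 difference was -0.97 (SE 0.20, unadjusted p = 0.000641, adjusted p = 0.911), and -0.90 (SE 0.20, adjusted p = 0.989) without corpus replicate 1. Corpus replicates 1 and 2, the highest for Gstm1, also held the replication gene Mcm5 in their pit-like cells, at 73.5 and 78.2 CPM, against 13.6, 5.55 and 7.11 CPM in the pylorus plates and 4.12 and 2.87 CPM in corpus replicates 3 and 4. The part of replicating cells in the Gstm1 difference was not tested.

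Aldh1a1 went the other way in pit-like cells, with 162, 234 and 241 CPM in the pylorus plates, against 99.9, 82.6, 127 and 141 CPM in the corpus plates. Here too the regions did not overlap, with pylorus high. Neither gene passed, and how many of the 8752 genes tested separated in this way is not given here. The difference was 0.96 (SE 0.30, unadjusted p = 0.00831, adjusted p = 0.9996), and 0.84 (SE 0.30, adjusted p = 0.989) without corpus replicate 1. Nqo1 had 495, 281 and 348 CPM in the pylorus plates, against 566, 439.6, 469 and 463 CPM in the corpus plates, and pylorus replicate 1 lay among the corpus values. Ptgr1, at 1183, 622 and 730.4 CPM in the pylorus plates, against 1159, 718, 578 and 697 CPM in the corpus plates, was high in both replicate 1 plates and overlapped. So did the other 5 genes.

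Akr1c14 had 319.9, 201 and 142 CPM in the pit-like cells of the pylorus plates, against 266, 444, 185 and 180.2 CPM in the corpus plates, with corpus replicate 2 the highest. Gpx2 had 66.0, 29.2 and 49.8 CPM in the pylorus plates, against 161, 19.2, 29.7 and 44.6 CPM in the corpus plates. Corpus replicate 1 was again the highest, and the other 6 plates overlapped. Cat had 50.6, 40.8 and 37.0 CPM in the pylorus plates, against 40.2, 32.5, 73.2 and 69.6 CPM in the corpus plates, so that corpus replicates 3 and 4 were high as they were over all cells.

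**Figure D4:**
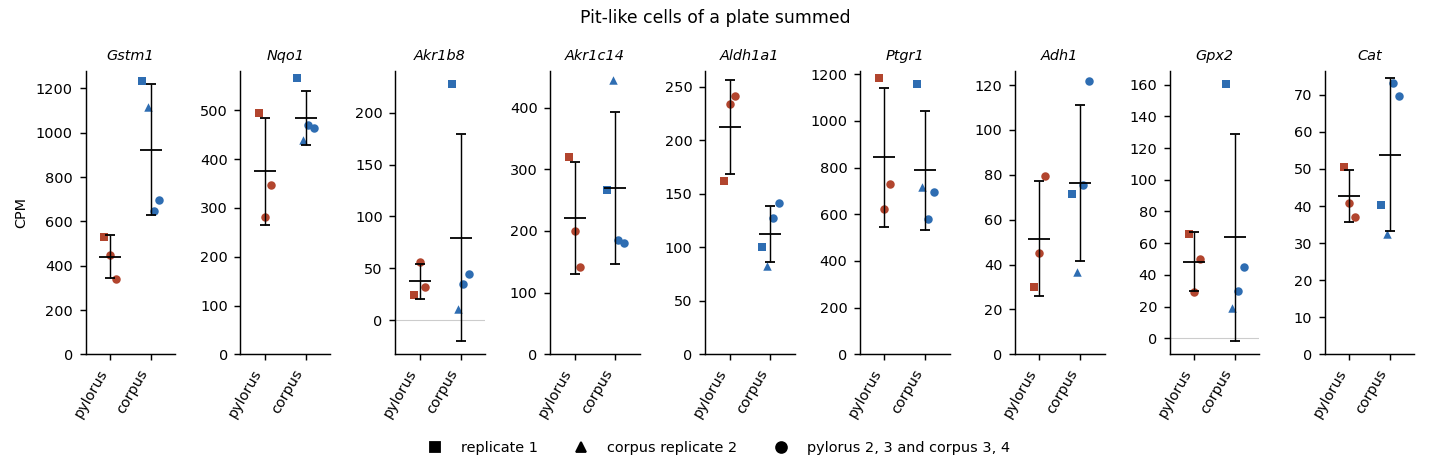
Level of each of the 9 genes in the pit-like cells of a plate, in CPM, with pylorus plates left and corpus plates right, symbols as in the plot of all kept cells and the mean ± SD in black. Gstm1 was at 341 to 531 CPM in the 3 pylorus plates, against 647 to 1235 CPM in the 4 corpus plates, and Aldh1a1 was at 162 to 241 CPM in pylorus plates, against 82.6 to 141 CPM in corpus plates.

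Pylorus replicates 2 and 3 and corpus replicates 3 and 4 were alike in depth and spike-in share and drew their pit-like cells from the same clusters. Their mitochondrial share of UMIs differed by region, at 12.2 and 12.9% in pylorus, against 20.5 and 17.8% in corpus, and its part in the results in these 4 plates was not tested. In these 4, limma called 221 of 8591 genes in pit-like cells (2.57%), and 5 of the 9 genes passed. Gstm1 (-0.86, SE 0.12, adjusted p = 6.90e-07), Nqo1 (-0.66, SE 0.12, adjusted p = 0.000121), Cat (-0.93, SE 0.16, adjusted p = 0.000152) and Adh1 (-0.74, SE 0.18, adjusted p = 0.0114) were lower in the pylorus plates. Aldh1a1 was higher there (0.73, SE 0.12, adjusted p = 5.47e-05). With 2 plates on each side, the spread that limma pools over all genes outweighs that of a gene itself, and scaling to total UMIs ended the call of Adh1 (adjusted p = 0.0593).

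The lower Gstm1 of pylorus plates held in each pit-like cluster of these 4. In cluster 15 it had 670.2 and 465 CPM in pylorus replicates 2 and 3, against 851 and 889 CPM in corpus replicates 3 and 4. In cluster 16 it had 269 and 243 CPM, against 310.2 and 398 CPM. In the pit-like cells of these plates the parietal gene Atp4b was at 82.7 and 137 CPM in pylorus, against 499 and 337 CPM in corpus, with no overlap. Its part in the results for Cat and Adh1 was not tested. The tuft gene Dclk1 was at 0 and 13.7 CPM in pylorus, against 7.78 and 11.9 CPM in corpus, and overlapped.

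Over all kept cells of these 4 plates, 434 of 11978 genes were called (3.62%), Nqo1 (-0.55, adjusted p = 0.00995) and Cat (-1.35, adjusted p = 5.27e-05) among them. Scaling to total UMIs kept Cat only. In neck or gland mucous-like cells 66 of 8320 genes were called (0.793%), with Cat the only 1 of the 9 (-0.96, adjusted p = 0.0181). In chief-like cells 41 of 7132 were called (0.575%), again with Cat (-1.30, adjusted p = 0.00582). Atp4b in the mucous-like cells was at 96.9 and 146 CPM in pylorus, against 532 and 368 CPM in corpus, and its part was not tested.

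In cluster 4, where Gstm1 was highest, it had 978 and 1127 CPM in pylorus replicates 2 and 3, against 968 and 1337 CPM in corpus replicates 3 and 4, so that the regions overlapped. The other plates held 3 or 4 cells of that cluster each, and no fit was made in it. In proliferating cells Gstm1 had 601, 608 and 682 CPM in pylorus replicates 1 to 3, against 1489, 888 and 1010.4 CPM in corpus replicates 1, 3 and 4. Corpus replicate 2, with 5 such cells, had 1364 CPM and stayed out of the fit. All 3 pylorus plates lay below all corpus plates, and how many of all genes separated so is not given here. Nqo1 had 246, 252 and 212 CPM in the proliferating cells of the pylorus plates, against 288, 231 and 312 CPM in those corpus plates, and overlapped. The Gstm1 difference was -0.81 (SE 0.20, unadjusted p = 0.00269, adjusted p = 0.999), and -0.70 (SE 0.20, adjusted p = 0.986) without corpus replicate 1. The test called 0 of 7088 genes (0%), with 130 at an unadjusted p under 0.05, and in the 4 similar plates 13 of 6928 (0.188%), none of the 9 among them.

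**Figure D5:**
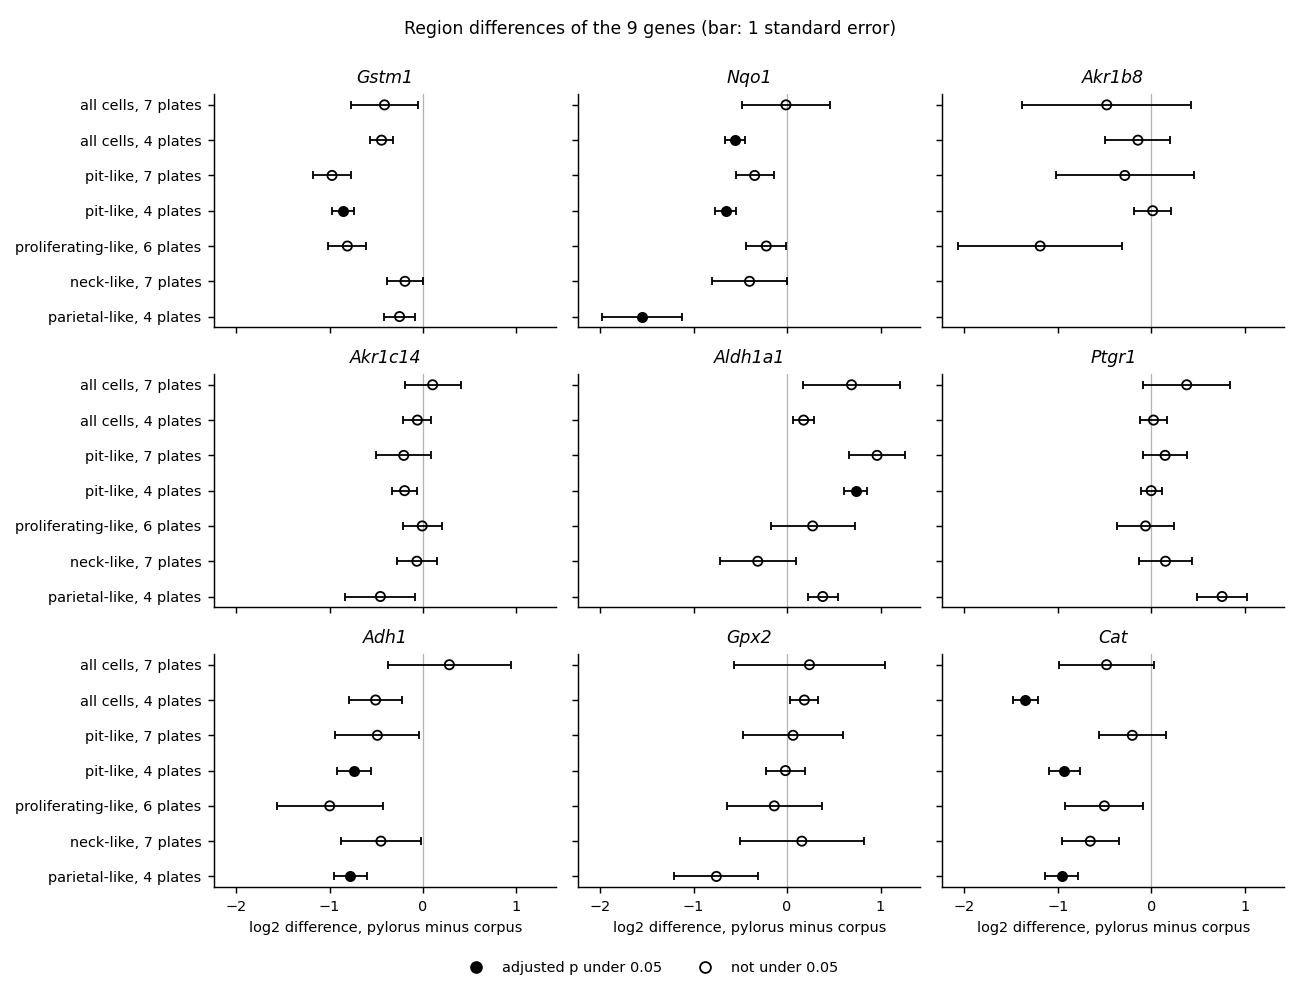
Difference between pylorus and corpus plates (log2, pylorus minus corpus, with its standard error) for each of the 9 genes in each fit in which it was tested. In pit-like cells Gstm1 was at -0.97 and Aldh1a1 at 0.96, neither past the adjusted threshold over all plates, and in parietal-like cells Cat was at -0.96.

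With all plates that had enough cells, the remaining classes gave these counts. Of 8 of the 9 genes tested in neck or gland mucous-like cells 0 passed, against 3 of 8241 of all genes (0.0364%). In chief-like cells 0 of 8 passed, against 0 of 7084 (0%, with 185 at an unadjusted p under 0.05). In endocrine-like cells 0 of 5 passed, against 0 of 6258 (0%, with 105 at an unadjusted p under 0.05), and in mast-like cells 0 of 2, against 1 of 1753 (0.057%). Whether a region difference was itself larger in pit-like than in mucous-like cells was tested in 1 model. Its estimate was -0.78 (SE 0.27, adjusted p = 0.889) for Gstm1 and 1.27 (SE 0.42, adjusted p = 0.889) for Aldh1a1, and 0 of 7877 genes passed (0%). Without corpus replicate 1 it was -0.74 (SE 0.30, adjusted p = 0.907) for Gstm1 and 0.86 (SE 0.21, adjusted p = 0.907) for Aldh1a1, and 0 of 7872 genes passed.

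Parietal-like cells were numerous enough in pylorus replicates 2 and 3 (12 and 20 cells) and corpus replicates 3 and 4 (56 and 42 cells). Of all genes, 489 of 6860 passed (7.13%), 223 higher and 266 lower in pylorus. Of the 8 tested here 3 passed, all lower in pylorus. Cat had 137 and 212 CPM in pylorus, against 268 and 264 CPM in corpus, a difference of -0.96 (SE 0.18, adjusted p = 0.00328) with no overlap. Adh1 had 207 and 183 CPM, against 238 and 300.3 CPM (-0.78, SE 0.18, adjusted p = 0.0148). Nqo1, at 4.35 and 10.4 CPM (2 and 8 UMIs), against 17.9 and 21.3 CPM (40 and 30 UMIs), differed by -1.56 (SE 0.43, adjusted p = 0.0360).

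Most of these calls depended on the scaling. The fit scales plates by trimmed means, which puts the median difference of all genes at -0.02. With total UMIs instead that median was 0.27, and 1012 of 6860 genes passed (14.8%), 871 higher and 141 lower. Cat then kept its call (-0.64, adjusted p = 0.0384). Adh1 (-0.46, adjusted p = 0.0892) and Nqo1 (-1.28, adjusted p = 0.0593) lost theirs, and Aldh1a1 (0.70, adjusted p = 0.00844) and Ptgr1 (1.07, adjusted p = 0.0161) passed, both higher in pylorus. Aldh1a1 had 404 and 364 CPM in the parietal-like cells of pylorus, against 251 and 220.1 CPM in corpus. The defining gene Atp4b was alike in both, at 10196 and 9961 CPM in pylorus and 10321 and 9379 CPM in corpus.

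With trimmed-mean scaling, the listed detoxification genes, the 9 included, moved both ways in parietal-like cells. Of all 6860 genes 223 were higher and 266 lower in pylorus (7.13% called). Of the 109 listed genes tested, 7 were higher and 7 lower, with a median difference of -0.03 against -0.02 over all genes. Those higher were the thioredoxins Txn1 (0.98) and Txn2 (0.62), the glutaredoxin Glrx3 (1.10), the transferases Gstm6 (1.63), Sult1c2 (0.84) and Sult1b1 (1.45), and Nfe2l2 (0.60). Those lower, besides Cat, Adh1 and Nqo1, were Gstm2 (-0.64), Sult1d1 (-1.19), the cytochrome P450 Cyp3a13 (-1.44) and the epoxide hydrolase Ephx1 (-1.77). In pit-like cells 0 of 125 listed genes passed, against 0 of all 8752, with a median of 0.04 against 0.01 over all genes. Over all kept cells 0 of 140 did, against 2 of all 12003, with a median of 0.06 against 0.00. In tuft-like cells no region fit was made, since only pylorus replicate 3 and corpus replicate 4 held at least 10 such cells.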

How the data were processed

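Each of the 7 plates was taken as 1 replicate of its labelled region. Unnormalized UMI counts, with genes as rows and wells as columns, were deposited by the authors, and the files hold whole numbers up to 4095. Per the submitters' processing notes the build was mm9. The aligner, the counting tool and the treatment of reads shared by near-identical genes are not stated in the sources used. All plates use the same 384 well barcodes, and totals per well correlated between plates at 0.11 at most. The 453 wells under 1000 UMIs were left out. Scanpy 1.11.5 clustered the cells on 2000 variable genes (the listed detoxification genes and mitochondrial genes left out, 30 components, 15 neighbours, Leiden resolution 1.0, igraph 0.11.9). Clusters were named from at least 3 detected markers. Doublets were not called, the wells having been filled 1 cell at a time by the sorter. Counts were summed by plate and class, and no count model was used. Sums were scaled by trimmed means (30% and 5%) to log2(CPM + 2), so that fold changes of low genes are understated, and tested in R 4.3.3 with limma 3.58.1, its prior following the mean level. Genes needed 10 counts at the median library in as many plates as the smaller region has, and 15 in all. Benjamini-Hochberg adjustment ran over all genes of a fit, at 0.05. The fits were tested on simulated data.

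The 9 genes and the gene lists were chosen with earlier results of these data known. Named beyond the 9 are, for each, the 3 most correlated genes, and of each list the genes that passed or else its most abundant ones. Genes of other cell types, of replication and of both pathway regulators were added as measured context. Depth limits the precision: in a plate's kept cells 3 counts are 0.316 to 1.15 CPM, and such floors and all shares cover counting error only. Alternatives changed the scaling, filter, weights, clustering, depth and plates. The fits on 4 similar plates with total-UMI scaling, and those without both plates of high spike-in share, were added after seeing the data, as was the pit against mucous model without corpus replicate 1.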

Additional observations from a re-analysis of the deposited data

Results flagged for a closer look

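In 5 of 36 groups of 4 corpus plates tested with Dixon's criterion, 1 plate lay far from the others, and chance flags about 1 in 20 groups. It was the library labelled corpus replicate 1 each time, always as the highest. Akr1b8 was at 228 CPM there in pit-like cells, with the next plate at 44.2 CPM, and at 11.4 CPM in neck or gland mucous-like cells, with the next at 0.676 CPM. Over all kept cells Akr1c14 was at 218 CPM, with the next at 113 CPM, and Gpx2 at 168 CPM, with the next at 31.6 CPM. Gpx2 in endocrine-like cells was at 35.2 CPM, with the next at 2.79 CPM.

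All plates use the same 384 well barcodes, and totals per well correlated between plates at 0.11 at most. The 453 wells under 1000 UMIs also held UMIs of these genes, in numbers above the 3 that a count of 0 allows: 66 of Gstm1, 45 of Nqo1, 28 of Ptgr1, 24 of Adh1, 16 of Cat, 14 of Akr1c14, 7 of Aldh1a1 and 6 of Gpx2, while Akr1b8 had 3. The 9 genes together made 209 of the 181601 UMIs in those wells, or 1151 CPM, against 1497 CPM in the kept wells.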

How the results depend on the processing

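Among the named classes, the highest kept its value to within the spread (SD) between plates in 100 of 102 alternatives. Alternatives that left out a plate cannot move a mean further than that SD, so they were bound to count as kept. The SD was wide for Akr1b8 (84.1 ± 80.0 CPM) and Gpx2 (94.1 ± 75.9 CPM). Cluster 4, where Gstm1 was highest, was not followed, and proliferating cells stood for Gstm1 instead. With wells thinned to 1000 UMIs, Akr1c14 in proliferating cells was at 195 CPM against 252 CPM, with pit-like cells then the highest, and Adh1 in tuft-like cells at 6531 against 7374 CPM. Leaving out each plate in turn gave 758 to 935 CPM for Gstm1, 61.5 to 98.2 CPM for Akr1b8 and 63.8 to 106 CPM for Gpx2 in proliferating cells. Of the 9 genes, 0 passed over all kept cells, but 2 did in the 4 similar plates and 1 with total-UMI scaling added. In pit-like cells these numbers were 5 and 4, and in neck or gland mucous-like and in chief-like cells 1 and 1 each. In parietal-like cells 1 to 4 passed when a plate was left out (1 without corpus replicate 4), and 0 with thinned wells, where the filter left 1 of the 9. Over all genes, leaving out a plate there gave 145 to 1380 calls against 489. In the other fits leaving out a plate gave 0 each time. For 11 of the log2 differences that the text gives, 173 alternatives were followed: 154 kept their side of the threshold, 12 gained a call, 7 lost one, and none changed direction. Of all 58 differences fitted for the 9 genes, 27 changed sign in some alternative, 0 of them past the threshold: without corpus replicate 1, Akr1b8 in pit-like cells was 0.40 against -0.28 and Gpx2 in proliferating cells 0.54 against -0.14, and Gstm1 in parietal-like cells was 0.07 with total-UMI scaling against -0.25. In parietal-like cells the Nqo1 call was also lost without a filter on low counts, with voom weights and without corpus replicate 3 or 4, and the Adh1 call without corpus replicate 4. Beyond what an alternative itself removes, the cause was not tested. Replicate numbers 1 to 3 occur in both regions. The correlations of same-numbered plates, taken on deviations from their region means, were 0.45, -0.11 and 0.47. Both replicate 1 plates were also shallow with a high spike-in share. These values therefore cannot decide whether the numbers pair the plates, and the main fits took plates as unpaired. A replicate block kept only plates whose number occurs in both regions, so the plates changed along with the model. In proliferating cells these were replicates 1 and 3 of each region. There 1 of the 9 passed, Gstm1 (-0.84, adjusted p = 0.0284), among 26 of 6885 genes (0.378%), against 0 of 7088 in the main fit. In the other classes fitted 0 passed as before. Over all genes the block gave 20 calls against 3 in neck or gland mucous-like, 5 against 0 in chief-like and 1 against 0 in pit-like cells. Leaving out corpus replicate 4 without a block gave 3 calls in neck or gland mucous-like and 0 in pit-like cells. In parietal-like and mast-like cells no such fit was made. Few tuft-like cells per plate and the shallow replicate 1 plates set the limits of depth.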
